A study of Mus musculus with 4 samples.

Results

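The D-type cyclins and the cyclin kinase inhibitors are a family of 10 mouse genes: Ccnd1, Ccnd2 and Ccnd3, the CIP/KIP inhibitors Cdkn1a, Cdkn1b and Cdkn1c, and the INK4 group Cdkn2a, Cdkn2b, Cdkn2c and Cdkn2d. Their values were taken from every array probe that carries one of these gene names, which gave 16 probes among the 55681 on the array, for 10 of 22327 named genes. All 10 genes had at least 1 probe well above background on all 4 arrays. RNA was from hand-picked pancreatic islets of 24-week-old C57BL/6 mice, with 1 array per group. The groups were transgenic males profiled 6 weeks after an E2 implant (male Tg E2), transgenic females (female Tg), transgenic males called diabetic in the labels (male Tg) and wild-type males (male WT). E2 commonly stands for estradiol. The labels used here name neither the transgene nor the promoter that drives it, and they do not give the number of mice behind an array. No female wild-type array was analysed here, so the female Tg array is set against male Tg and differs from it in sex.

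A D cyclin binds CDK4 or CDK6, and the complex phosphorylates the retinoblastoma protein, which then releases E2F factors that switch on genes of DNA replication. INK4 proteins bind CDK4 and CDK6 and block their activity. CIP/KIP proteins act on a wider range of cyclin and CDK complexes, above all those with CDK2. In mouse islets, cyclin D2 is the D cyclin on which postnatal beta cell growth mainly depends, and p16INK4a, encoded by Cdkn2a, is known to increase with age and to restrain beta cell division.

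Levels below are log2 of the background-corrected intensity relative to the array's own 75th percentile, so a level of 0 equals that percentile and 1 unit is 2-fold. Levels of different probes are not comparable, so each gene is set only against itself on another array. A difference is given with the standard error of the scanner software's error model, which was about 0.20 for the brighter probes. That error is the software's own estimate and is nearly the same for all bright probes. It is not a spread measured between arrays or between mice, which could not be measured with 1 array per group. There is therefore no p-value, and each difference is one between libraries. A gene counts as different where it was at least 2-fold apart and well above background on both arrays.

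Between 49.9% and 54.8% of spots were well above background on an array, none was saturated, and the 75th percentile of intensity lay between 202 and 365. Markers of other cell types differed widely between the arrays. The summed level of 10 acinar markers, in multiples of the array's 75th percentile, was 3900 on male Tg E2, 480 on female Tg, 6510 on male Tg and 442 on male WT. In that order the summed level was 95.9, 48.2, 119 and 11.0 for 7 stellate and matrix markers, 21.1, 60.6, 89.1 and 11.5 for the lymphocyte markers and 51.4, 156, 537 and 113 for the erythroid markers. All acinar and stellate markers were well above background on every array. The 7 beta cell markers, all well above background on each array, summed to 1910, 1844, 2641 and 1836. These sums add levels of different probes, so the brightest probes weigh most. For the beta cell markers these were the insulin genes Ins1 and Ins2, which made up most of the sum on every array. Each of the other beta cell markers was lowest on male Tg, where the sum was highest. In bulk islet RNA, fewer cells of a type and less RNA per cell cannot be told apart.

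With each gene read by its brightest probe, cyclin D2 had the widest range of the family. Its only probe, of 60 bases, is shown because all Ccnd2 values rest on it. It lies on the minus strand at mm9 chr6:127098696-127098755 and reads, 5′ to 3′:
Ccnd2 probe: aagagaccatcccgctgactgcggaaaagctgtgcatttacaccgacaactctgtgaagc

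On this probe Ccnd2 had a log2 level of 5.30 on the male Tg E2 array, 5.51 on female Tg, 4.54 on male Tg and 6.07 on male WT. The male Tg array was the lowest and the male WT array the highest, with the other two close together between them. From lowest to highest, the steps between neighbours were 0.76, 0.20 and 0.56, and only the middle one, between male Tg E2 and female Tg, was no larger than its standard error of 0.20. Ccnd2 was 2.89-fold lower on male Tg than on male WT, a log2 difference of -1.53 ± 0.20. Of the 14381 genes measured on both arrays, 2.57% lay lower. Against male Tg it was 1.70-fold higher on male Tg E2 (0.76 ± 0.20) and 1.96-fold higher on female Tg (0.97 ± 0.20), both short of 2-fold. In those comparisons 94.2% and 96.2% of genes lay lower than Ccnd2. In male Tg E2 over male WT, which does not use the male Tg array, Ccnd2 was 1.70-fold lower (-0.77 ± 0.20), with 5.23% of genes lower. Ccnd2 was at least 2-fold lower on male Tg than on male WT under each of 5 other scalings, with values between -1.67 and -1.32. For female Tg over male Tg it passed 2-fold under 4 of them. The authors' series table, 1 of the 5, is nearly the same as quantile scaling.

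The 5 beta cell markers other than the insulin genes had the male Tg array lowest and male WT highest, as Ccnd2 did. Of 7 beta cell markers, 4 were at least 2-fold lower on male Tg than on male WT, where 8.69% of all genes were. The list median was -1.51. The median was 0.27 for male Tg E2 over male Tg, with 2 of 7 at least 2-fold higher, and 0.64 for female Tg over male Tg, also with 2 of 7. Of all genes, 2.54% and 3.51% were at least 2-fold higher in these comparisons. For male Tg E2 over male WT the list median was -0.88, with 3 of 7 at least 2-fold lower, where 2.64% of all genes were. Nkx6-1, a transcription factor of beta cells, had levels of 5.28 on male Tg E2, 5.60 on female Tg, 4.17 on male Tg and 6.30 on male WT. That is the same order of arrays as for Ccnd2. The insulin genes, named like Nkx6-1 after their values were seen, went the other way in the scaling used here. Ins1 had levels of 10.11 on male Tg E2, 10.08 on female Tg, 10.63 on male Tg and 9.96 on male WT, and Ins2 was likewise highest on male Tg, by 0.73 over male WT. In male Tg over male WT, Ins1 kept its sign under only 2 of 5 other scalings, with values between -0.25 and 0.87. Ins2 also did so under only 2 of 5, with values between -0.29 and 0.93. With the insulin genes the summed level of the list, in the scaling used here, was highest on male Tg. The part of the beta cell markers in the Ccnd2 values was not tested.

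**Figure D1:**
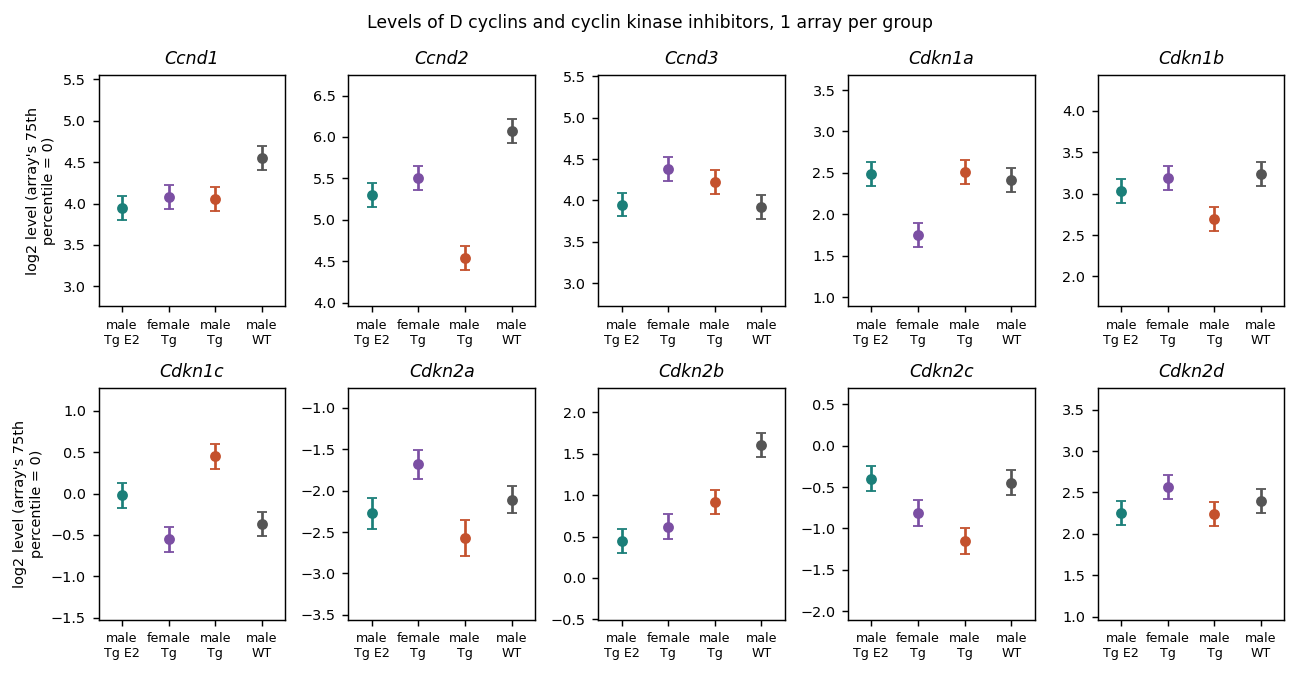
Log2 level of each of the 10 genes on each array, relative to the array's 75th percentile, with the arrays in the order male Tg E2, female Tg, male Tg and male WT. Bars are the standard error of the scanner software's error model. Ccnd2 lies at 4.54 on male Tg against 6.07 on male WT, and Cdkn2d stays between 2.24 and 2.57.

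Cyclin D1, the D cyclin best known as a target of growth factor signals, had levels of 3.95 on male Tg E2, 4.08 on female Tg, 4.05 on male Tg and 4.55 on male WT. From lowest to highest the steps were 0.10, 0.03 and 0.47, so the 3 transgenic arrays lay close together and male WT stood above them. Ccnd1 was thus lower on male Tg than on male WT by a log2 difference of -0.50 ± 0.20 and lower on male Tg E2 than on male WT by -0.60 ± 0.20, or 1.52-fold. In those comparisons 30.4% and 8.72% of genes lay lower than Ccnd1. Its differences from male Tg were -0.10 ± 0.20 on male Tg E2 and 0.03 ± 0.20 on female Tg, within the error. The Ccnd1 probe lies at chr7:152116202-152116261.

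Cyclin D3, the D cyclin of the broadest tissue range, had levels of 3.95 on male Tg E2, 4.38 on female Tg, 4.22 on male Tg and 3.92 on male WT. Here male WT was the lowest array, unlike for Ccnd1 and Ccnd2, but its gap to male Tg E2 was 0.03. A second Ccnd3 probe read 2.16, 2.80, 2.47 and 2.23 on the same arrays, again highest on female Tg. The log2 difference of male Tg over male WT was 0.30 ± 0.20, and that of female Tg over male Tg was 0.16 ± 0.20. No Ccnd3 difference reached 2-fold. Over the 3 D cyclins the median log2 difference was -0.50 in male Tg over male WT, -0.10 in male Tg E2 over male Tg, 0.16 in female Tg over male Tg and -0.60 in male Tg E2 over male WT. The medians of all genes in the same comparisons were -0.21, 0.12, 0.10 and -0.09.

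Among the CIP/KIP inhibitors, Cdkn1a encodes p21, a target of p53 that stops the cell cycle after DNA damage. Its main probe was spotted 10 times on each array, at mm9 chr17:29237377-29237436, and so shows the spot noise directly. Its level was 2.49 on male Tg E2, 1.75 on female Tg, 2.51 on male Tg and 2.41 on male WT. The 10 spots ranged over 2.41 to 2.56 on male Tg E2, 1.69 to 1.83 on female Tg, 2.42 to 2.56 on male Tg and 2.31 to 2.47 on male WT. All 10 female Tg spots lay below all spots of the 3 male arrays, which overlapped among themselves. The spots of an array share 1 labelled RNA, so this spread is technical. Female Tg was 1.69-fold lower than male Tg (-0.76 ± 0.20), and 11.7% of genes lay lower. The differences of male Tg over male WT (0.09 ± 0.20) and of male Tg E2 over male Tg (-0.02 ± 0.20) were within the error.

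A dimmer Cdkn1a probe gave another picture. It read -3.26 on male Tg E2, -2.95 on male Tg and -4.14 on male WT, and it was not well above background on female Tg. On it, male Tg was above male WT by 1.19 ± 0.40, which is over 2-fold, while the 10-spot probe gave 0.09. The third Cdkn1a probe was well above background only on female Tg (-2.78) and male WT (-3.20), so it gave none of the 4 differences. The probes therefore disagree on male Tg over male WT. The probe that gave 1.19 does not list every RefSeq transcript that the 10-spot probe lists, so they need not read the same transcripts. The cause was not tested.

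**Figure D2:**
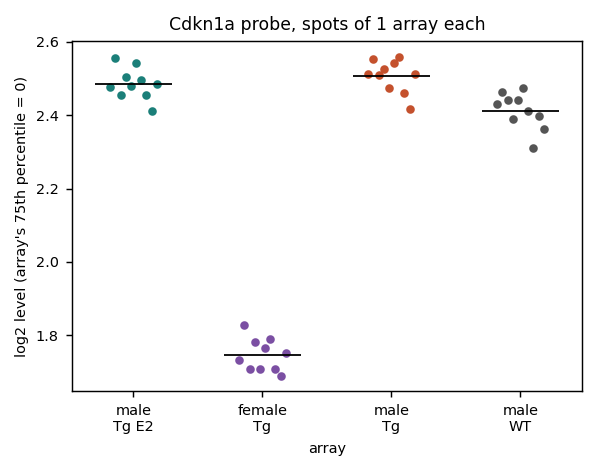
Log2 level of the 10 spots of the main Cdkn1a probe on each array, in the order male Tg E2, female Tg, male Tg and male WT. Points are spots and the line is their mean. The female Tg spots lie between 1.69 and 1.83 and the male spots between 2.31 and 2.56.

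Cdkn1b encodes p27, which holds back CDK2 complexes in resting cells. Its levels were 3.03 on male Tg E2, 3.19 on female Tg, 2.69 on male Tg and 3.24 on male WT. Male Tg was the lowest array, and from there the steps were 0.34, 0.16 and 0.05. The log2 difference was -0.55 ± 0.20 for male Tg over male WT and 0.50 ± 0.20 for female Tg over male Tg, and for male Tg E2 over male Tg it was 0.34 ± 0.20. Of the genes measured, 27.2%, 81.2% and 72.1% lay lower in these comparisons. A second, dimmer probe also had its lowest value on male Tg, with -2.24, -1.01, -2.65 and -2.07 in the same order of arrays. On that probe female Tg exceeded male Tg by 1.64 ± 0.27, against 0.50 on the brighter probe.

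Cdkn1c, encoding p57, is an imprinted gene that marks cells leaving the cell cycle. By brightest probe it was the CIP/KIP gene with the widest range. Its levels were -0.02 on male Tg E2, -0.55 on female Tg, 0.45 on male Tg and -0.37 on male WT. The male Tg array was the highest, the opposite end from its place for Ccnd2 and Cdkn1b. Cdkn1c was higher on male Tg than on male WT by 0.81 ± 0.21 and lower on male Tg E2 than on male Tg (-0.47 ± 0.21). In those comparisons 82.0% and 17.0% of genes lay lower. Female Tg was below male Tg by -0.999 ± 0.21, just short of 2-fold, with 8.58% of genes lower. The value was between -1.10 and -1.02 under 3 other scalings and -0.72 and -0.76 under the pair with another background correction. The probe lies at chr7:150644753-150644812.

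The INK4 gene Cdkn2b encodes p15, an inhibitor known to be induced by TGF-beta. Its levels were 0.45 on male Tg E2, 0.62 on female Tg, 0.91 on male Tg and 1.60 on male WT. All 3 transgenic arrays lay below male WT, and the step between male Tg and male WT, 0.69, was the widest between neighbours. Male Tg E2 was 2.23-fold lower than male WT (-1.15 ± 0.20), and 1.82% of the 14583 genes measured on both arrays lay lower. It stayed short of 2-fold, at -0.98, after another background correction with quantile scaling. Male Tg was lower than male WT by -0.69 ± 0.20, with 19.2% of genes lower. Relative to male Tg the values were -0.47 ± 0.21 on male Tg E2 and -0.29 ± 0.21 on female Tg. A second, dimmer probe read -1.91, -1.97, -1.57 and -1.17 in the same order of arrays, again highest on male WT. It gave -0.74 ± 0.24 for male Tg E2 over male WT and -0.41 ± 0.23 for male Tg over male WT, neither of which was 2-fold.

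Cdkn2a encodes p16INK4a and, in another reading frame, p19ARF, which acts on p53 through MDM2. Both Cdkn2a probes list transcripts of both products, so these could not be told apart. The gene was dim, with processed intensities of 61.9 on male Tg E2, 81.5 on female Tg, 34.0 on male Tg and 84.6 on male WT, and its second probe was not well above background on any array. The scaled levels were -2.27, -1.68, -2.57 and -2.11 in the same order. Female Tg was the highest and male Tg the lowest. Female Tg exceeded male Tg 1.85-fold (0.89 ± 0.28), with 95.1% of genes lower, but by only 0.31 and 0.47 under the pair of scalings with another background correction. Its other differences were -0.46 ± 0.27 in male Tg over male WT, -0.16 ± 0.25 in male Tg E2 over male WT and 0.30 ± 0.29 in male Tg E2 over male Tg. All were under 2 standard errors, and the first and the last changed sign with that background correction and the 75th percentile. Cdkn2a and Cdkn2b are neighbours on chromosome 4, with probes at chr4:88920405-88920464 and chr4:88952276-88952335.

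Cdkn2c encodes p18, an inhibitor that together with p27 is a known target of menin in islet cells. Its levels were -0.40 on male Tg E2, -0.81 on female Tg, -1.15 on male Tg and -0.45 on male WT. Male Tg was the lowest array, and male Tg E2 and male WT were 0.05 apart. Cdkn2c was lower on male Tg than on male WT by -0.70 ± 0.21, with 18.5% of genes lower. On male Tg E2 it was 1.68-fold higher than on male Tg (0.75 ± 0.21), with 94.0% of genes lower. With another background correction and the 75th percentile these differences shrank to -0.47 and 0.50. Female Tg over male Tg was 0.34 ± 0.22.

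Cdkn2d, encoding p19INK4d, varied least. Its levels were 2.25 on male Tg E2, 2.57 on female Tg, 2.24 on male Tg and 2.39 on male WT, a range of 0.33. A narrower range was found for 12.8% of the 13887 genes well above background on all arrays. Male Tg E2 and male Tg were 0.0046 apart.

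**Figure D3:**
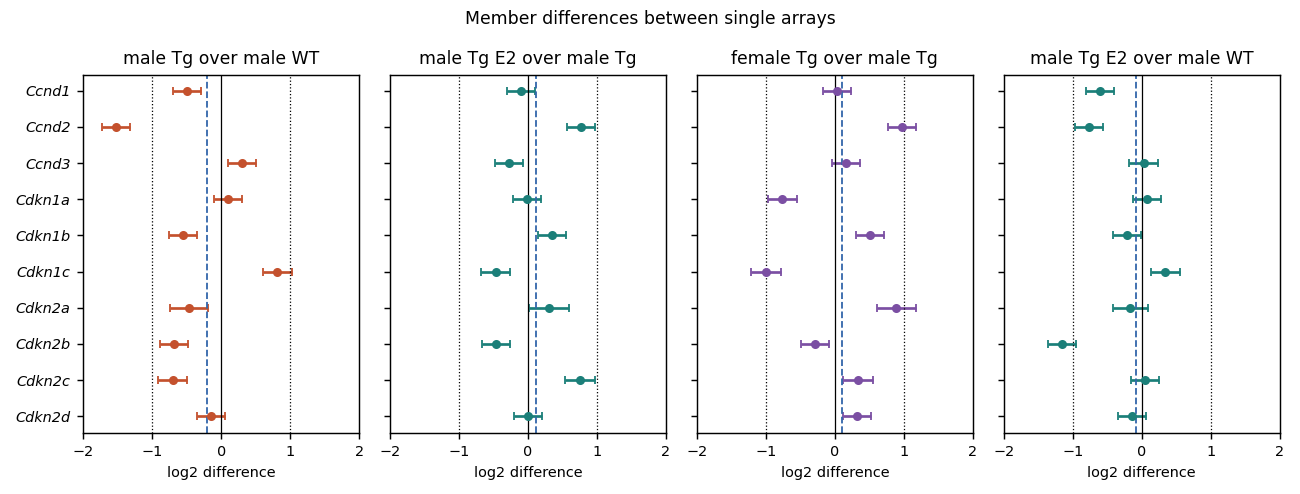
Log2 difference of each of the 10 genes in male Tg over male WT, male Tg E2 over male Tg, female Tg over male Tg and male Tg E2 over male WT, with bars for the standard error of the scanner software's error model. Dotted lines mark 2-fold in either direction and the dashed line is the median of all genes measured. Ccnd2 in male Tg over male WT (-1.53) and Cdkn2b in male Tg E2 over male WT (-1.15) lie past 2-fold.

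Counted over the family, 0 of 10 genes were at least 2-fold higher on male Tg than on male WT, against 15.6% of all genes. At least 2-fold lower was 1 of 10, Ccnd2, against 8.69% of all genes. With male Tg over male WT centred on the median of all genes, the share of higher calls among all its calls was 77.9%, against 64.3% without centring. For male Tg E2 over male Tg no member was at least 2-fold apart, 0 of 10 higher and 0 of 10 lower, where 2.54% of all genes were higher and 8.01% lower. The same held for female Tg over male Tg, with 3.51% of all genes higher and 8.57% lower. For male Tg E2 over male WT, 0 of 10 were higher and 1 of 10 lower (Cdkn2b), where 8.81% of all genes were higher and 2.64% lower. Counts of 0 or 1 in 10 are near these background shares.

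Whatever their size, 3 members were above 0 and 7 below in male Tg over male WT, where 39.1% of all genes were above and 60.9% below. In male Tg E2 over male Tg the split was 5 and 5, with 59.8% and 40.2% of all genes. In female Tg over male Tg it was 7 and 3, with 57.4% and 42.6%. In male Tg E2 over male WT it was 4 and 6, with 40.4% and 59.6%. The median of the 10 members was -0.48 in male Tg over male WT, -0.01 in male Tg E2 over male Tg, 0.24 in female Tg over male Tg and -0.15 in male Tg E2 over male WT, beside all-gene medians of -0.21, 0.12, 0.10 and -0.09. For the 7 inhibitors alone the medians were -0.46, 0.0046, 0.33 and -0.15. The first 3 of these comparisons share the male Tg array, so an error on that array enters each of them. Of the 40 member differences, 31 kept their sign under all 5 other scalings, and the 9 that did not were at most 0.46 in size.

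**Figure D4:**
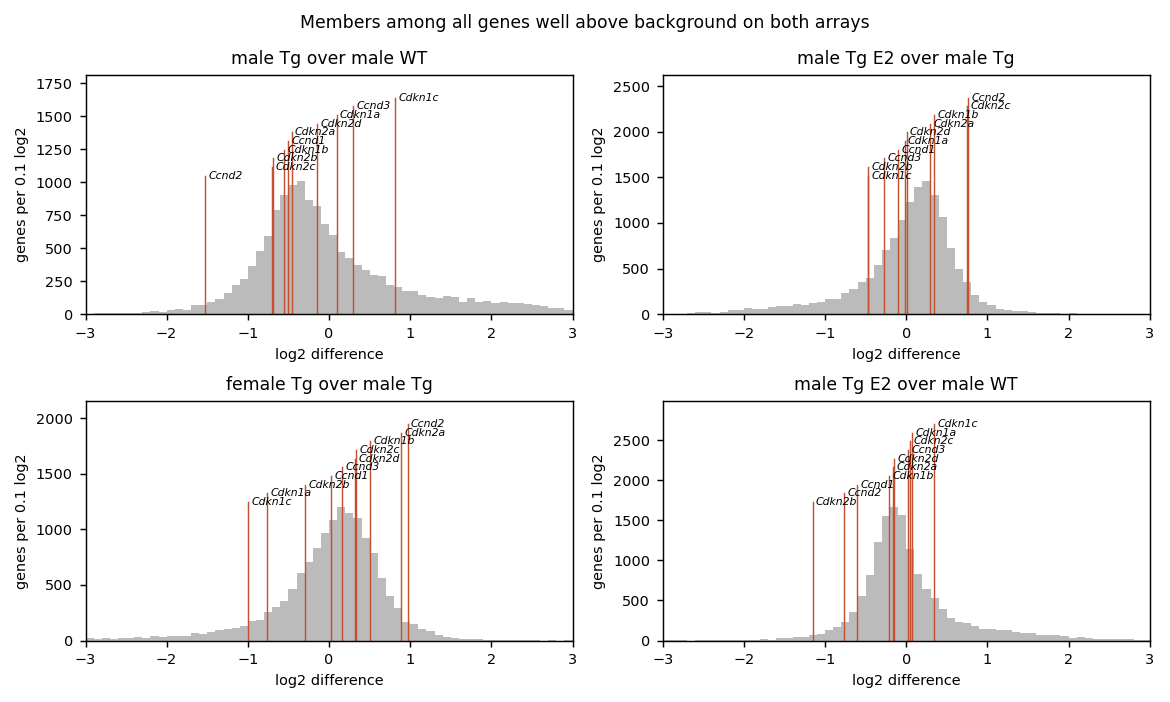
Histograms of the log2 difference of all measured genes in the 4 comparisons, in bins of 0.1 with the axis limited to 3 in either direction, and the 10 members marked. Most members lie in the body of each distribution. Ccnd2 lies at -1.53 in male Tg over male WT, where 2.57% of genes lay lower.

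Male Tg was the lowest of the 4 arrays for 5 members (Ccnd2, Cdkn1b, Cdkn2a, Cdkn2c and Cdkn2d) and the highest for 2 (Cdkn1a and Cdkn1c). Among all genes, male Tg was lowest for 46.3% and highest for 25.7%. Male WT was the highest for 4 members (Ccnd1, Ccnd2, Cdkn1b and Cdkn2b), where it was highest for 43.6% of all genes. The range over the 4 arrays was 1.53 for Ccnd2, wider than that of 84.7% of genes, 1.15 for Cdkn2b and 0.999 for Cdkn1c. It was 0.89 for Cdkn2a, 0.76 for Cdkn1a, 0.75 for Cdkn2c, 0.60 for Ccnd1, 0.55 for Cdkn1b and 0.46 for Ccnd3, beside a median of 0.68 over all genes.

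The genes whose pattern was nearest to that of a member were sought for Ccnd2 and Cdkn2b, the 2 members with a range of at least 1 log2 (Cdkn1c, at 0.999, fell short), among 13886 genes. Likeness is the root mean square difference of log2 levels after centring each gene on its mean over the 4 arrays, and 4 points can be matched by many genes. Nearest to Ccnd2 were Pigh, at 0.0265 log2, Akain1 at 0.0317 and Vegfa, the vascular endothelial growth factor, at 0.0334. The nearest member was Cdkn1b, at 0.346. Nearest to Cdkn2b were Mthfd2, a mitochondrial folate enzyme, at 0.0307, Cryl1 at 0.0358 and Pparg, a nuclear receptor, at 0.0569. Its nearest member was Ccnd1, at 0.228.

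RefSeq windows of the 250 bases before a transcription start, on build GRCm38.p6, were matched for 7 of the 10 members with 11 windows, and not for Ccnd1, Ccnd2 and Cdkn1c. The pair below is shown to set Cdkn2b, the member that was at least 2-fold lower on male Tg E2 than on male WT, beside Cdkn2c, which lay 0.05 apart on those arrays. Both run 5′ to 3′ along the gene and end at the base before the start. Capitals in Cdkn2b mark the cAMP response element TGACGTCA, and in Cdkn2c they mark the GC box GGGCGG.
Cdkn2b, chr4:89311033-89311282, minus strand: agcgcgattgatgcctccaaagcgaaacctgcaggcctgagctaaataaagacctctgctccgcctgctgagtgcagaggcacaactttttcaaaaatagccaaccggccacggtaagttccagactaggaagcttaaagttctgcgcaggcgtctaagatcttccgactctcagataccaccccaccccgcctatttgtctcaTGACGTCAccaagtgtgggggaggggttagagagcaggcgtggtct
Cdkn2c, chr4:109666757-109667006, minus strand: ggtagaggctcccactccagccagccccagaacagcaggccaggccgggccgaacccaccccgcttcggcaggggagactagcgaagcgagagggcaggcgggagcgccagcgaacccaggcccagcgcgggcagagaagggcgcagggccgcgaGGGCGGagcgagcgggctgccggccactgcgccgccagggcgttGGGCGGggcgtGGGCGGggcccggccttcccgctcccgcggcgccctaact

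The Cdkn2b window was 53.6% G and C and held TGACGTCA at bases -46 to -39 from the start. That element was in 1.55% of all 32851 windows on either strand, and in none of the other member windows. The Cdkn2c window shown was 77.2% G and C and held 3 GC boxes, at -95 to -90, -51 to -46 and -40 to -35. A second Cdkn2c start, with a window at chr4:109665373-109665622, was 42.8% G and C and held none of the motifs searched. A GC box was in 7 of the 11 member windows, from 6 members, and in 32.7% of all windows. The median G and C content of all windows was 52.4%. The CCAAT box CCAAT was in 3 of the 11 member windows, from 3 members (Ccnd3, Cdkn1b and Cdkn2d), and in 33.8% of all. The FOXO site TGTTTAC was in a Ccnd3 window and in 3.17% of all. The E2F site forms searched, TTTCGCGC (0.256% of all windows) and TTTGGCGC (0.417%), were in no member window, and other forms were not searched. Neither the STAT site TTCNNNGAA (7.02%) nor the full palindrome of the estrogen response element (0.0639%) was in a member window. Both strands were searched. A match describes these letters only, and no binding was measured.

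Around the D cyclins, the partner kinase Cdk4, named after its values were seen, had levels of 4.61 on male Tg E2, 4.63 on female Tg, 4.15 on male Tg and 5.01 on male WT. It was lowest on male Tg and highest on male WT, as Ccnd2 was. The log2 difference of male Tg over male WT was -0.86 ± 0.20, and none of its 4 differences reached 2-fold. The other D cyclin partner, Cdk6, was not well above background on any array, and neither was Cdk1. None of the 3 pocket proteins, the retinoblastoma protein and its relatives, was at least 2-fold apart in any comparison. Of the E2F genes, 7 of 8 were measured in male Tg over male WT. At least 2-fold lower was 1 of the 7, E2f5, at -1.48 ± 0.26 on a dim probe, where 8.69% of all genes were.

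Of 14 genes of DNA replication and mitosis that E2F factors switch on, 12 were measured in male Tg over male WT. At least 2-fold higher were 7 of the 12 and lower 0, beside 15.6% and 8.69% of all genes, and the median was 1.30 beside -0.21 for all genes. The other 5 were under 2-fold, down to Pcna, the replication clamp, at -0.06, which was chosen after its value was seen. The examples with the largest difference were Tk1, thymidine kinase, at 2.10 ± 0.22, Birc5 (survivin), which acts in mitosis, at 2.04 ± 0.21 and Mki67, the proliferation marker Ki-67, at 1.97 ± 0.21. Mki67 had levels of 0.24 on male Tg E2, 0.77 on female Tg, 1.20 on male Tg and -0.77 on male WT, so all 3 transgenic arrays lay above male WT. Of the later cyclins 4 of 5 were measured, and the B cyclins Ccnb1 (2.28 ± 0.32) and Ccnb2 (1.71 ± 0.21), which drive mitosis, were at least 2-fold higher on male Tg than on male WT.

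The replication and mitosis genes in male Tg E2 over male Tg had a median of -0.45 beside 0.12 for all genes, and 1 of 13, Tk1, was at least 2-fold lower (-1.35 ± 0.22), where 8.01% of all genes were. For female Tg over male Tg the median was -0.30 and 0 of 13 were at least 2-fold apart. For male Tg E2 over male WT the median was 0.55, and 4 of 12 were at least 2-fold higher, where 8.81% of all genes were, led by Rrm2 (1.45 ± 0.21), Cdc20 (1.27 ± 0.21) and Birc5 (1.13 ± 0.21). Later cyclins in that comparison had 2 of 4 higher, Ccnb1 at 1.55 ± 0.33 and Ccnb2 at 1.17 ± 0.21. Markers of other cells differed too. Their counts stand beside all-gene shares of 15.6% higher in male Tg over male WT and 8.57% lower in female Tg over male Tg. In male Tg E2 over male WT 2.64% of all genes were at least 2-fold lower. In male Tg over male WT, medians were 3.40 for lymphocyte markers (7 of 8 at least 2-fold higher), 3.88 for stellate (7 of 7), 4.69 for acinar (9 of 10), 2.26 for erythroid (5 of 5 measured) and 1.10 for macrophage markers (4 of 6). On male Tg E2 relative to male Tg they were -1.85 for lymphocyte markers (7 of 8 at least 2-fold lower), -3.32 for erythroid (5 of 5), -0.76 for acinar (3 of 10), -0.01 for stellate (1 of 7) and 0.08 for macrophage markers (0 of 6). In female Tg over male Tg at least 2-fold lower were 9 of 10 acinar, 5 of 7 stellate, 5 of 5 erythroid, 1 of 8 lymphocyte and 1 of 6 macrophage markers. On male Tg E2 relative to male WT, at least 2-fold higher were 9 of 10 acinar, 7 of 7 stellate, 5 of 8 lymphocyte and 4 of 6 macrophage markers, while 4 of 5 erythroid markers were lower. The part of these cells in the replication and mitosis genes was not tested.

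Of 12 genes of p53 and its targets, 1 was at least 2-fold higher on male Tg than on male WT, where 15.6% of all genes were. It was Phlda3, an inhibitor of AKT, at 2.21 ± 0.20, and the list median was -0.19. The same gene was lower on female Tg than on male Tg (-1.30 ± 0.20), where Bax, which promotes apoptosis, was higher (1.25 ± 0.20). In that comparison 8.57% of all genes were at least 2-fold lower and 3.51% higher. In male Tg E2 over male WT Phlda3 alone passed 2-fold, at 1.62 ± 0.20, where 8.81% of all genes were higher. In male Tg E2 over male Tg none of the 12 passed 2-fold, where 2.54% of all genes were higher and 8.01% lower. The list that acts on the cyclin and inhibitor genes had 14 of 15 measured. On male Tg relative to male WT, 1 of the 14 was at least 2-fold higher and 2 lower, where 15.6% and 8.69% of all genes were. Smad3, a carrier of TGF-beta signals, was higher (1.73 ± 0.21). The Polycomb genes Cbx7 (-1.62 ± 0.28) and Bmi1 (-1.30 ± 0.20), whose products are known to repress the Cdkn2a locus, were lower. Ezh2, a further Polycomb gene of the list, named after its value was seen, was at 0.71 ± 0.22. Cdkn2a was at -0.46 ± 0.27 there, on a dim probe, and kept its sign under 4 of 5 other scalings. A link between these genes was not tested.

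Foxo3, a factor known to induce Cdkn1b, was higher on male Tg E2 than on male Tg (1.56 ± 0.21) and than on male WT (1.35 ± 0.21). It was 1 of 14 regulator genes at least 2-fold higher in each comparison, where 2.54% and 8.81% of all genes were. In both, 0 of the 14 were at least 2-fold lower, where 8.01% and 2.64% of all genes were. Cdkn1b in the same comparisons was at 0.34 ± 0.20 and -0.21 ± 0.20. In female Tg over male Tg, 1 of the 14 was at least 2-fold lower and 0 higher, where 8.57% and 3.51% of all genes were. Smad3 was the lower one (-1.01 ± 0.21), and Cdkn2b was at -0.29 ± 0.21 there. In male Tg E2 over male Tg they were at -0.94 ± 0.21 and -0.47 ± 0.21. Against male WT the 2 genes had opposite signs. Smad3 was at 1.73 ± 0.21 on male Tg and 0.79 ± 0.21 on male Tg E2, and Cdkn2b at -0.69 ± 0.20 and -1.15 ± 0.20. A link between them was not tested. The genes named from these lists with a 2-fold difference had the same direction under 5 other scalings. Some were then short of 2-fold under at least 1 of them: Ccnb1, E2f5 and Cbx7 in male Tg over male WT, Tk1 in male Tg E2 over male Tg, Smad3 in female Tg over male Tg, and Ccnb1, Ccnb2, Birc5 and Cdc20 in male Tg E2 over male WT. The medians of the replication and mitosis genes kept their sign under all 5. Those of the p53 and regulator lists lay between -0.19 and 0.22, and each changed sign under at least 1 scaling except that of the p53 list in female Tg over male Tg.

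**Figure D5:**
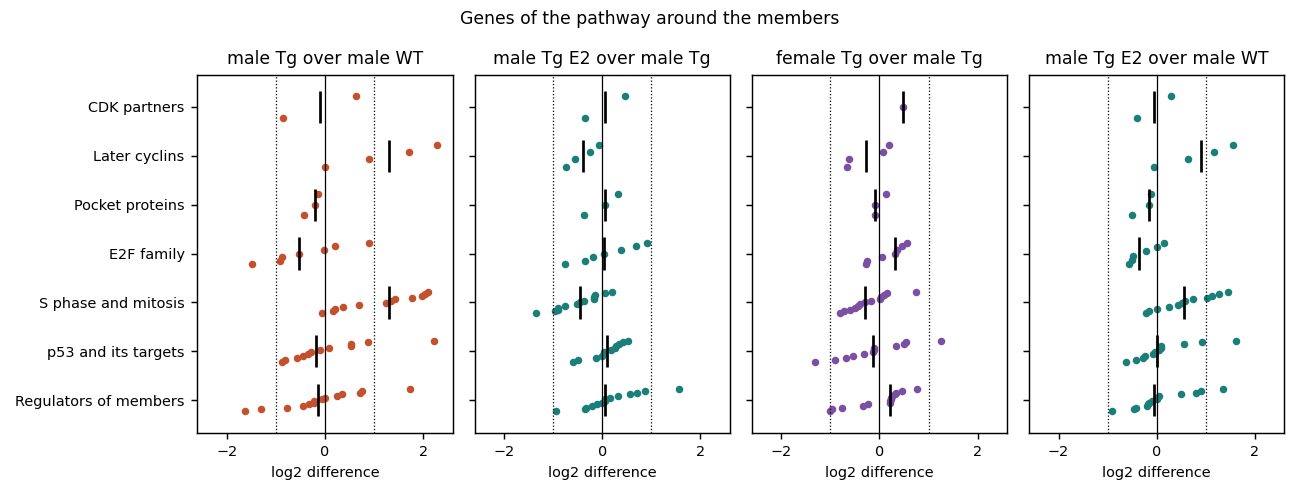
Log2 difference of the genes of each pathway list in the 4 comparisons. Points are genes measured on both arrays, black bars are list medians and dotted lines mark 2-fold. The replication and mitosis genes have a median of 1.30 in male Tg over male WT and -0.45 in male Tg E2 over male Tg.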

How the data were processed

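Total RNA of islets was amplified, labelled with Cy3 and hybridised to 4 one-colour Agilent arrays, 1 per group, per the labels. The deposited scanner files hold processed, background-corrected linear intensity, per the file headers, which name Feature Extraction 10.7.1.1, while the submitters' processing notes name 9.5.1.1. Probe positions refer to mm9 per the file headers, and no exon or UTR was assigned. The deposited series table holds linear intensity with the same distribution in each column, uncentred, with a column median of 25.9, and the step that made it is not given in the sources used here. It served as an alternative.

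The log2 of the processed intensity, averaged over spots without an outlier flag, was reduced by that of the array's 75th percentile. A gene stands by its probe with the highest mean log2 level over the 4 arrays, among probes named through a RefSeq table of GRCm38.p6 (27229 by accession, 3586 by symbol, 565 by synonym, 24301 unmatched). A gene was measured where the scanner software called its probe well above background on each of the 2 arrays. With 1 array per group no test was possible and the number of arrays limits precision. Standard errors come from the deposited intensity errors, and the median log2 SD among spots of 399 probes spotted 10 times was 0.0656 to 0.0752. All members were named whatever their value, and of each pathway list the 3 that differed most among those at least 2-fold apart. The members and lists were chosen with earlier results of these data known. The 8 alternatives changed the scaling, background correction, filter or probe rule. The calculation was tested on simulated data. Promoter windows came from RefSeq on GRCm38.p6. No per-sample column was left without a sample.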

Additional observations from a re-analysis of the deposited data

How the results depend on the processing

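With 1 array per group no array could be left out. No paired analysis was possible because the labels give no replicate numbers and each group has 1 array. Of the 8 alternatives, 5 change the scaling or background correction. The 2 filters left all 40 member differences as they were, and the mean of probes cannot move a gene with 1 measured probe, so these say nothing of stability there. Ccnd2 in male Tg over male WT was at least 2-fold lower under the 5 scalings. In that comparison, centring on the all-gene median gave 1 member at least 2-fold higher in place of 0 (Cdkn1c, 1.02) and a member median of -0.28. In female Tg over male Tg, 1 member in place of 0 was at least 2-fold higher with quantile scaling (Ccnd2, 1.10), normexp background with the 75th percentile (Ccnd2, 1.05), normexp with quantile scaling (Ccnd2, 1.10), the series table (Ccnd2, 1.09) and the mean of all probes (Cdkn1b, 1.07). In the same comparison 1 in place of 0 was at least 2-fold lower with quantile scaling (Cdkn1c, -1.02), centring (Cdkn1c, -1.10) and the series table (Cdkn1c, -1.03). In male Tg E2 over male WT, 0 in place of 1 was at least 2-fold lower with normexp and quantile scaling (Cdkn2b, -0.98) and the mean of all probes (Cdkn2b, -0.95). The cause was not tested. The sign changed for Cdkn1a, Cdkn2a and Cdkn2d in male Tg over male WT, for Ccnd1, Cdkn1a, Cdkn2a and Cdkn2d in male Tg E2 over male Tg, for Ccnd1 in female Tg over male Tg and for Ccnd3 in male Tg E2 over male WT, each under at least 1 alternative. Signal over background limits Cdkn2a, Cdkn2c on male Tg and the dim probes of Cdkn1a.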
